A study of Mus musculus with 7 samples.

Results

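The miR-467 microRNAs (miRNAs) of the mouse Sfmbt2 gene were measured by quantitative PCR in 4 aortas and in 3 cultures of bone marrow-derived macrophages. Every assay whose name begins with miR-467 and carries no star, the mark of the minor strand of a hairpin, was taken. This gave 5 of the 517 miRNA assays: miR-467a, miR-467b, miR-467c, miR-467d and miR-467e. The aortas are labelled as untreated controls of strain apoE-/-, and the macrophages as strain C57BL/6. All mice were female and 6 to 8 weeks old. The marrow cells were cultured for 7 days in L929-conditioned medium and then polarized to the M1, or inflammatory, state with lipopolysaccharide (100 ng/ml for 14 hours) and interferon-γ (10 ng/ml for 6 hours). The word normal stands for the aortic tissue in the series title, which leaves its strain label in doubt. The strain differs along with the type of sample, so these cannot be told apart, and no unstimulated macrophages were measured. Every sample is labelled as its own biological replicate.

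Sfmbt2 encodes a Polycomb group protein, and in the mouse placenta it is expressed from the paternal copy. One of its introns holds a large rodent miRNA cluster that grew by tandem duplication, made of the miR-297, miR-466, miR-467 and miR-669 families. The cluster is known for its role in placental growth. In macrophages, miR-467b is reported to repress lipoprotein lipase, the enzyme that frees fatty acids from lipoproteins. In vascular cells, miR-467 is reported to repress thrombospondin-1, an inhibitor of vessel growth, under high glucose.

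The RefSeq table listed 72 miRNA genes inside Sfmbt2 on chromosome 2, of which 14 belonged to the miR-467 family, 23 to miR-466, 29 to miR-669 and 5 to miR-297. All 5 measured members had a hairpin gene inside Sfmbt2. miR-467a had 10 hairpin genes there and miR-467b, miR-467c, miR-467d and miR-467e had 1 each, so the miR-467a assay sums over copies. A miR-466 gene came next in order after 13 of the 14 miR-467 genes, and a miR-669 gene after that in 11. Another 3 miR-467 genes lie outside Sfmbt2, and none of the assays carried their names. The members are close in sequence, so an assay may pick up the target of another, and what each contributes was not tested.

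Each value is a cycle threshold (Ct), the number of PCR cycles an assay needed to reach a set fluorescence, and a later Ct stands for less target. A miRNA counted as detected at Ct 35 or earlier. Between 416 and 454 miRNAs were detected per aorta and between 326 and 366 per macrophage culture. Averaged over the 296 miRNAs that every sample detected, the Ct ran from 22.6 to 24.7 in aorta and from 25.4 to 27.8 in macrophages, and was latest in macrophage replicate 3. An assay for the plant miRNA miR159a, which has no mouse counterpart, also crossed in 4 samples. In aorta replicate 3 it crossed at Ct 21.1, earlier than all 5 miR-467 assays. In aorta replicates 1 and 2 it crossed at Ct 27.9 and 28.4, earlier than 1 member in each. In macrophage replicate 3 it crossed at Ct 31.4, later than all 5. Its part in the values below was not tested.

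All 5 members were detected in all 7 samples. Their Ct values lay between 22.2 and 31.3. Their order varied within both sample types, and macrophage replicate 2 had the same order as aorta replicates 3 and 4. miR-467b was the earliest member in all 4 aortas. miR-467c was the earliest in macrophage replicates 1 and 3, and miR-467b in macrophage replicate 2. miR-467e was the latest member in every sample but macrophage replicate 3, where miR-467d was. Assays can differ in efficiency, so this order is that of the Ct and not of the number of molecules.

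The main scale sets each miRNA against its own sample. The scaled level is the mean of the 296 miRNAs in that sample minus the miRNA's own Ct, in cycles; folds assume doubling at every cycle. On this scale 3 of the 5 members (miR-467a, miR-467c and miR-467e) were higher in macrophages than in aorta (limma, adjusted p under 0.05), although miR-467a turned negative with snoRNA135, U87 or Y1 as the reference and miR-467e with snoRNA135 or Y1. The other two did not pass. Of all 429 miRNAs tested, 24.7% were called higher and 30.8% lower. The members' median difference was 1.63, against -0.21 over all miRNAs tested. Every sample detected all 5 members, and over the 296 miRNAs detected in all samples the median was 0.56. When those 296 alone were tested, 102 were called higher and 76 lower (limma, adjusted p under 0.05). Scaled levels did not overlap between the groups for 3 of the 5 members and for 58.7% of all miRNAs tested. In bulk samples, fewer cells of a type and less RNA per cell cannot be told apart.

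miR-467c differed most. It crossed at Ct 26.9, 27.8, 24.2 and 25.2 in the aortas and at Ct 24.6, 25.0 and 26.8 in the macrophages. Its unscaled Ct values thus overlapped, with macrophage replicate 3 close to aorta replicate 1. Its scaled levels were -3.44, -3.12, -1.61 and -1.77 in aorta and 0.79, 0.50 and 0.98 in macrophages. Every macrophage sample was above every aorta, and the aortas spread more widely than the macrophages. The log2 difference was 3.24 ± 0.57 (SE), a 9.45-fold higher level (adjusted p = 0.00242, limma). Of the 429 miRNAs tested, 57 were higher in macrophages by more than this.

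miR-467a, the member with several hairpin copies, was also higher. It crossed at Ct 26.0, 27.8, 24.8 and 25.9 in aorta and at Ct 26.1, 26.3 and 29.0 in macrophages. Its scaled levels were -2.49, -3.09, -2.16 and -2.50 in aorta and -0.72, -0.87 and -1.19 in macrophages. The groups did not overlap, and both were narrow. The log2 difference was 1.63 ± 0.39 (SE), or 3.10-fold (adjusted p = 0.00942, limma).

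miR-467e was the third member that passed. It crossed at Ct 29.4, 30.8, 27.1 and 27.1 in aorta and at Ct 28.7, 27.3 and 31.0 in macrophages. Its scaled levels were -5.93, -6.11, -4.51 and -3.65 in aorta and -3.33, -1.85 and -3.22 in macrophages. The groups did not overlap, but the highest aorta, replicate 4, came close to the lowest macrophage sample, replicate 1. The log2 difference was 2.25 ± 0.74 (SE), or 4.76-fold (adjusted p = 0.0351, limma). Leaving out aorta replicate 1 or 2 ended the call (adjusted p = 0.0713 and 0.0764), as did leaving out macrophage replicate 1, 2 or 3 (adjusted p = 0.0566, 0.118 and 0.0501).

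miR-467b and miR-467d did not pass, and macrophage replicate 3 stood apart for both. miR-467b, reported to act on lipoprotein lipase in macrophages, crossed at Ct 23.8, 24.5, 22.2 and 22.9 in aorta and at Ct 24.7, 24.8 and 29.0 in macrophages. Its scaled levels were -0.33, 0.17, 0.43 and 0.53 in aorta and 0.73, 0.63 and -1.28 in macrophages. Macrophage replicates 1 and 2 lay above all aortas and macrophage replicate 3 below all of them. The log2 difference was -0.17 ± 0.59 (SE, adjusted p = 0.819, limma), with a 95% confidence interval from -1.56 to 1.22. Without macrophage replicate 3 it was 0.58 (adjusted p = 0.273).

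miR-467d crossed at Ct 26.6, 28.4, 25.4 and 26.4 in aorta and at Ct 26.9, 26.8 and 31.3 in macrophages. Its scaled levels were -3.07, -3.67, -2.75 and -2.96 in aorta and -1.48, -1.33 and -3.49 in macrophages. Macrophage replicate 3 fell among the aortas, and the other two macrophage samples lay above them. The log2 difference was 1.01 ± 0.62 (SE, adjusted p = 0.204, limma), with a 95% confidence interval from -0.43 to 2.46. Without macrophage replicate 3 it was 1.80 and passed (adjusted p = 0.0105). Macrophage replicate 3 also had the latest mean Ct, at 27.8, and the fewest miRNAs detected, at 326. The part of its lower signal in these values was not tested.

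**Figure D1:**
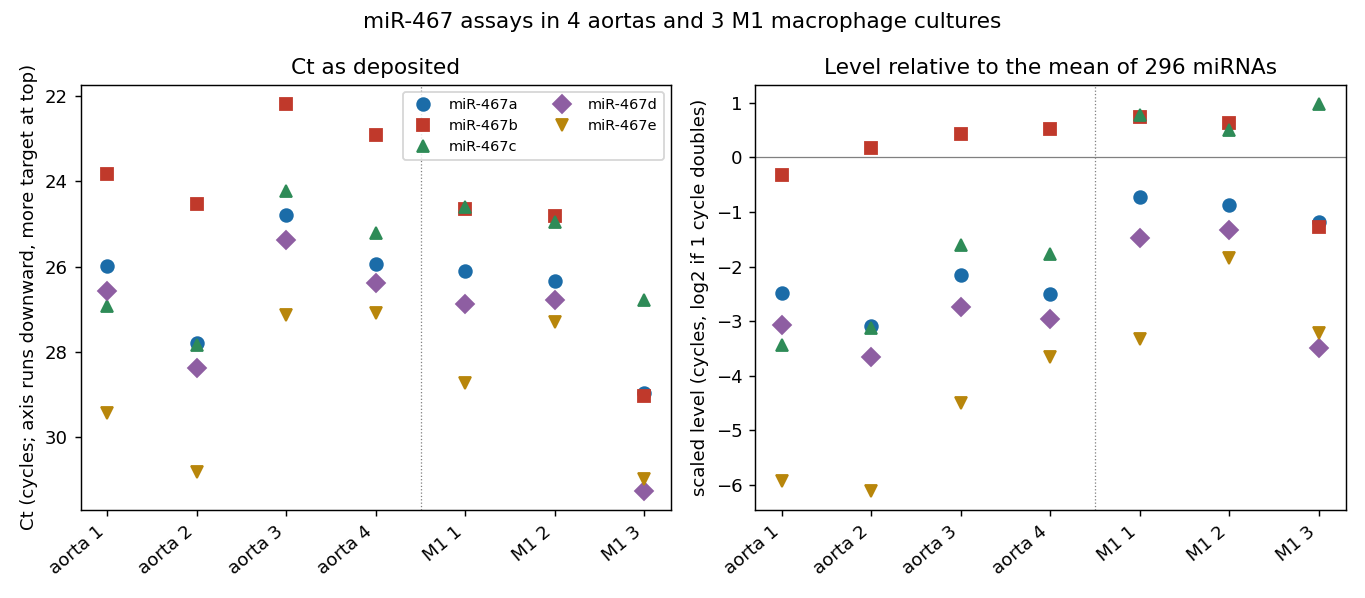
Ct (left, in cycles, with the axis running downward so that more target is at the top) and scaled level (right, in cycles, relative to the mean of 296 miRNAs) of the 5 miR-467 assays, 1 point per assay and sample. On the scaled axis miR-467c lies between -3.44 and -1.61 in aorta and between 0.50 and 0.98 in macrophages, while miR-467b and miR-467d of macrophage replicate 3 sit at -1.28 and -3.49.

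Ranks within a sample use no reference. Among the 517 miRNAs, ordered from the earliest Ct, miR-467c stood at places 314, 281, 233 and 222 in the aortas and at places 116, 137 and 108 in the macrophages. miR-467a stood at places 245 to 278 in aorta and 164 to 182 in macrophages. miR-467e stood at places 301 to 391 and 211 to 258. For these 3 members the ranks of the groups did not overlap. The share of all miRNAs with ranks apart was not computed. For scaled levels, a different measure, it was 58.7% of those tested. The ranks of miR-467d did not overlap either, from 268 to 296 in aorta and from 190 to 267 in macrophages, with a gap of 1 place. Those of miR-467b overlapped, at 140 to 181 and 117 to 186. Fewer miRNAs were detected in macrophages, so a miRNA can move up in rank there because others fell.

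The direction of 3 members depended on the reference RNA. The panel carried 6 small RNAs commonly used as references: MammU6, the spliceosomal U6 RNA, the small nucleolar RNAs snoRNA135, snoRNA202, snoRNA429 and U87, and the Y RNA Y1. The level of snoRNA429 above the miRNA mean was 7.03 ± 0.27 in the 4 aortas and 6.98 ± 0.06 in the 3 macrophage samples (SD). The macrophage mean was higher by 0.66 for MammU6, 1.33 for snoRNA202, 1.80 for U87, 2.66 for Y1 and 3.15 for snoRNA135. A member set against a reference that is higher in macrophages comes out lower there by the same number of cycles. MammU6 varied most among the references other than Y1 within aorta, with levels from 8.37 in replicate 1 to 10.4 in replicate 2.

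**Figure D2:**
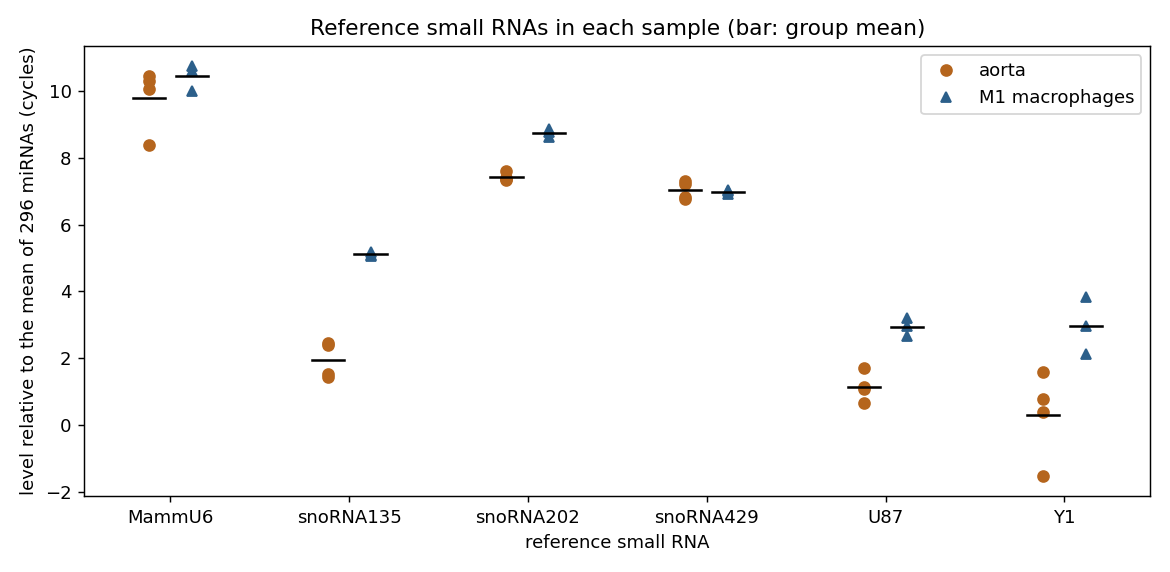
Level of the 6 reference small RNAs relative to the mean of 296 miRNAs (in cycles), 1 point per sample, with a bar at each group mean. snoRNA429 lies near 7 in both groups, while snoRNA135 averages 1.96 ± 0.55 over the aortas and 5.11 ± 0.07 over the macrophage samples (SD).

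miR-467c kept a positive difference against all 6 reference RNAs taken singly, from 0.09 with snoRNA135 to 3.29 with snoRNA429. It passed against snoRNA429 (adjusted p = 0.0053), MammU6 (2.58, adjusted p = 0.0288) and snoRNA202 (1.91, adjusted p = 0.0214). It did not pass against U87 (1.44, adjusted p = 0.0591), Y1 (0.58, adjusted p = 0.665) or snoRNA135 (adjusted p = 0.871). With the authors' deposited table, whose values are relative to MammU6 and snoRNA202, miR-467c was 2.25 higher (adjusted p = 0.0119, limma) and was the only member called.

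miR-467b went the other way. Its difference was negative against all 6 references, from -0.12 with snoRNA429 to -3.32 with snoRNA135. Against snoRNA429, macrophage replicates 1 and 2 lay within the range of the aortas, and macrophage replicate 3 lay below all of them. It was called lower against snoRNA135 (adjusted p = 0.002) and U87 (-1.97, adjusted p = 0.0447), and missed the threshold against Y1 (-2.83, adjusted p = 0.059) and snoRNA202 (-1.50, adjusted p = 0.0772). miR-467b was the only member whose unscaled Ct did not overlap between groups, with 24.5 as the latest aorta and 24.7 as the earliest macrophage sample. The mean Ct of the miRNAs that every sample detected was also apart, at 22.6 to 24.7 in aorta and 25.4 to 27.8 in macrophages. The share of all miRNAs with unscaled Ct values apart was not computed. Whether the gap is particular to miR-467b was therefore not tested. Without scaling miR-467b was not called (adjusted p = 0.0733, limma), where 48.3% of all miRNAs were called lower and 2.33% higher.

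The other three members changed sign with the reference. miR-467a was higher by 1.68 with snoRNA429 (adjusted p = 0.0156) and lower with snoRNA135, at -1.52 (adjusted p = 0.0266). It lay between -1.03 and 0.97 with the other 4 references and passed with none of them. miR-467d ranged from 1.06 with snoRNA429 to -2.14 with snoRNA135, where it was called lower (adjusted p = 0.02). miR-467e ranged from 2.30 with snoRNA429 to -0.90 with snoRNA135 and passed with none of the 6. Its adjusted p with snoRNA429 was 0.0553.

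The number of members called also differed between references. With snoRNA429, 2 of 5 members were called higher and none lower, against 24.9% and 31.0% of all miRNAs tested. With MammU6, 1 member was higher, where 12.1% of all were higher and 28.9% lower. With snoRNA202, 1 member was higher, where 11.4% of all were higher and 40.8% lower. With the deposited values, 1 member was higher, where 12.4% of all were higher and 36.1% lower. With U87, 1 member was lower, where 8.62% of all were higher and 46.6% lower. With snoRNA135, 3 members were lower, where 2.80% of all were higher and 66.0% lower. With Y1 no member was called in either direction, against 2.56% higher and 46.9% lower, and 1 member had an unadjusted p under 0.05. The median over all miRNAs tested moved from -0.16 with snoRNA429 to -0.86, -1.54, -2.01, -2.87 and -3.36 with MammU6, snoRNA202, U87, Y1 and snoRNA135. The members' median moved from 1.68 to 0.97, 0.30, -0.17, -1.03 and -1.52 in the same order. A change of the single reference shifts every miRNA by the same number of cycles. The gap between these medians therefore cannot change, and its persistence is no further result.

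Combined references, quantile normalization and no scaling were also compared. Against the mean of snoRNA135 and snoRNA202, miR-467b alone was called, at -2.41 (adjusted p = 0.0102, limma), where 7.46% of all miRNAs were higher and 53.8% lower. Against the mean of all 6 reference RNAs, a setting chosen after seeing the data, miR-467c alone was called, at 1.65 (adjusted p = 0.0253), where 9.32% were higher and 42.4% lower. Quantile normalization, which gives every sample the same distribution, called 4 members higher, where 34.3% were higher and 27.5% lower. Without any scaling no member was called (1 had an unadjusted p under 0.05), where 2.33% were higher and 48.3% lower.

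**Figure D3:**
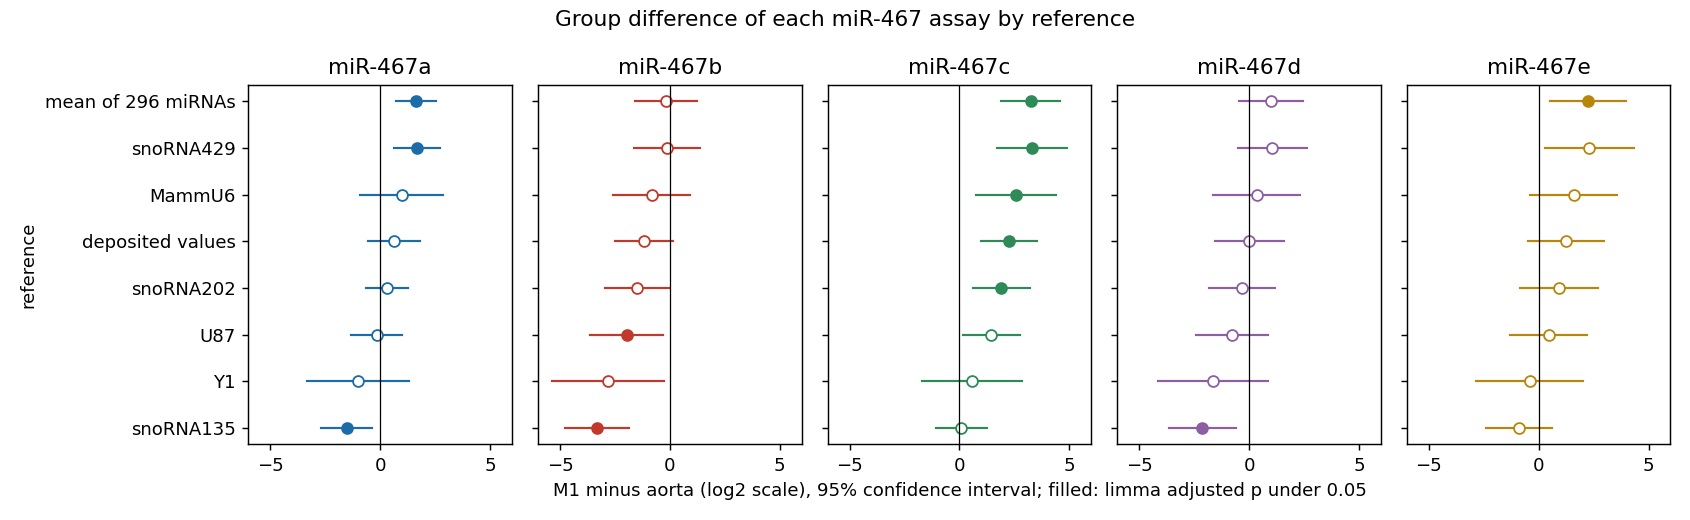
Difference between macrophages and aorta (log2 scale) of each miR-467 assay under 8 references, with 95% confidence intervals from limma; filled points passed at an adjusted p under 0.05. miR-467c stays at or above 0.09 and miR-467b at or below -0.12, while miR-467a, miR-467d and miR-467e lie on both sides of 0.

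Differences between members within a sample need no reference at all. The 10 pairs of members were compared by their Ct difference. Groups did not overlap in 6 of the 10 pairs, against 62.2% of 43660 pairs among the 296 miRNAs detected in all samples. In the 2-sided form used here, the exact permutation test of 4 against 3 samples could not go below p = 0.0571. All 6 pairs reached this value in the exact permutation test, with 0.0952 after adjustment over the 10 pairs. No pair could therefore pass at 0.05 with this form of the test. Other forms were not run.

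The widest shift was between miR-467b and miR-467c. The Ct of miR-467b minus that of miR-467c was -3.11, -3.30, -2.04 and -2.30 cycles in the aortas and 0.05, -0.13 and 2.25 in the macrophages. All 4 aortas thus had miR-467b well ahead, and no macrophage sample had it ahead by more than 0.13 cycles. The group difference was 3.41 cycles (exact permutation p = 0.0571), and 2.65 without macrophage replicate 3, the sample that moved it most.

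miR-467c moved in the same sense against miR-467a and miR-467d. The Ct of miR-467a minus that of miR-467c was -0.95, -0.03, 0.55 and 0.73 in aorta and 1.51, 1.37 and 2.17 in macrophages. The groups did not overlap, and the difference of means was 1.61. The Ct of miR-467c minus that of miR-467d averaged -0.63 ± 0.72 over the 4 aortas and -2.85 ± 1.41 over the 3 macrophage samples (SD), without overlap. That difference of -2.23 was -1.42 without macrophage replicate 3. Against miR-467e the groups overlapped, at -2.99 to -1.88 cycles in aorta and -4.20 to -2.35 in macrophages.

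miR-467b moved the other way against every member. The group difference in the Ct of miR-467b minus that of the other member was 3.41 for miR-467c, 1.18 for miR-467d and 2.42 for miR-467e, and for miR-467a minus miR-467b it was -1.80 (-1.28 without macrophage replicate 3). The groups overlapped in none of these 4 pairs. Of these, the difference to miR-467d was the most even. It was -2.74, -3.84, -3.18 and -3.48 cycles in aorta and -2.21, -1.96 and -2.21 in macrophages, where it included the late macrophage replicate 3. Both members were late in that sample together.

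miR-467a and miR-467d kept a nearly fixed distance in aorta. The Ct of miR-467a minus that of miR-467d was -0.58, -0.58, -0.59 and -0.46 in the aortas, with an SD of 0.06 cycles. Of the 43660 pairs of miRNAs, 33 had a smaller SD over the aortas. This pair had the smallest aortic SD of the 10 and was singled out for it. For the other member pairs, 16.0% to 53.4% of all pairs had a smaller SD. In macrophages the Ct of miR-467a minus that of miR-467d was -0.76, -0.46 and -2.30. Replicate 3 was apart there, and the groups overlapped (exact permutation p = 0.229). These are descriptions, and the sequences of these members were not compared here. Repeated wells, which only control assays had, differed by a median of 0.46 cycles.

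**Figure D4:**
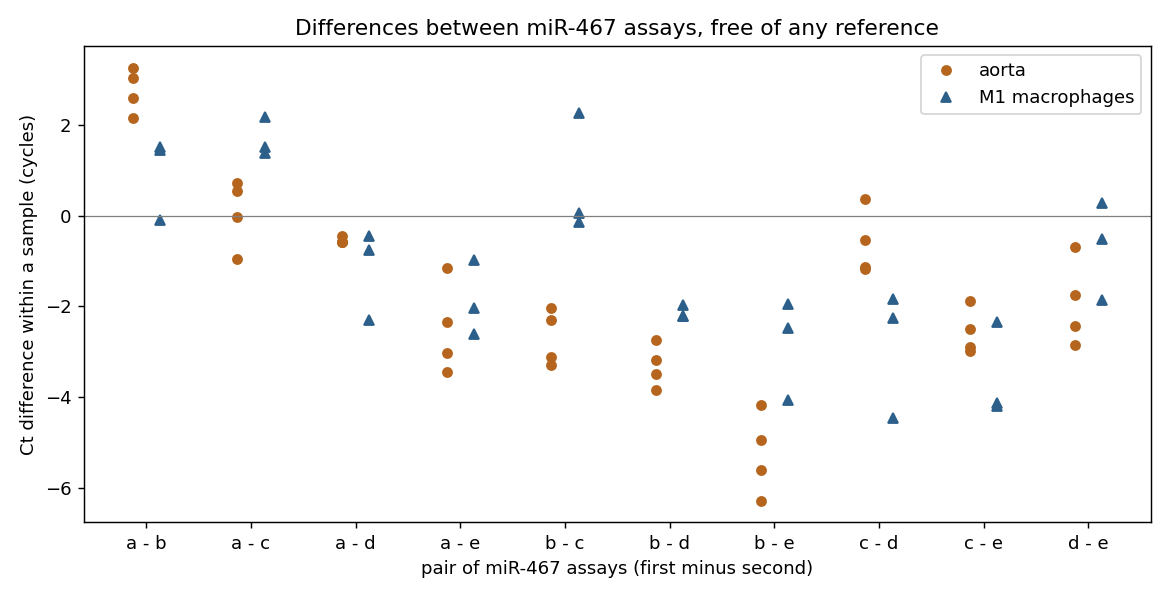
Ct difference within a sample (cycles, first assay minus second) for the 10 pairs of miR-467 assays, with 1 point per sample, aortas as circles and macrophages as triangles. The groups are apart in 6 pairs, most widely for b - c, which lies between -3.30 and -2.04 in aorta and between -0.13 and 2.25 in macrophages.

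The star strands of 3 members were on the panel. miR-467a* crossed earlier than miR-467a in every sample. Its Ct minus that of miR-467a was -5.22, -5.75, -4.66 and -6.36 cycles in aorta and -3.24, -4.93 and -4.04 in macrophages. The mean lead was smaller in macrophages by 1.43 cycles on average, but macrophage replicate 2 fell within the aortas (exact permutation p = 0.114). miR-467b* crossed later than miR-467b by 5.37, 6.44, 4.53 and 2.45 cycles in aorta and by 3.86, 3.00 and 0.61 cycles in macrophages, again with overlap (exact permutation p = 0.171). Over the 53 main and star pairs detected in all samples, 58.5% did not overlap between groups, and neither miR-467 pair was among them. miR-467e* was detected in all 4 aortas, at Ct 26.9, 29.9, 28.0 and 33.7, and crossed in no macrophage sample. Set to the limit of Ct 35, its difference was -2.75 ± 1.58 (SE, adjusted p = 0.181, limma). Without aorta replicate 4, the latest of the aortas, it was -4.17 and was called lower (adjusted p = 0.0063, limma). The deposited table, which keeps uncrossed wells at Ct 40, gave -8.74 (adjusted p = 0.00573, limma).

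A further 13 assays bore the names of the miR-297, miR-466 and miR-669 families or were miR-467 star strands. By name alone these are called relatives or other Sfmbt2 intron miRNAs. Whether each miR-297, miR-466 or miR-669 assay has a hairpin gene inside Sfmbt2 was not checked. Of the 12 tested, 2 were higher in macrophages on the main scale, none was lower (0 in that direction at an unadjusted p under 0.05, limma) and 10 did not pass, with a median difference of -0.28. The share of all miRNAs tested was 24.7% for higher and 30.8% for lower. The 4 largest differences were those of miR-466h, miR-466c-5p, miR-467e* and miR-669a.

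miR-669a, from the family that follows miR-467 and miR-466 in the repeating order, was higher by 2.04 ± 0.36 (SE, adjusted p = 0.00245, limma). Its scaled levels ran from -2.18 to -1.59 in aorta and from -0.14 to 0.27 in macrophages, without overlap. miR-297c was the other that passed, at 1.60 ± 0.49 (SE, adjusted p = 0.0267), and without aorta replicate 1 or 2 or macrophage replicate 1 or 2 it did not (adjusted p = 0.0577, 0.0605, 0.0753 and 0.0793). Neither passed with MammU6, snoRNA202, U87 or Y1 as the reference or with the deposited table, and with snoRNA135 miR-297c was called lower, at -1.54 (adjusted p = 0.0227).

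miR-466h and miR-466c-5p were detected in some samples only. miR-466h crossed at Ct 25.1, 26.9, 25.2 and 25.7 in aorta and at Ct 25.3 in macrophage replicate 2, and not in macrophage replicates 1 and 3. miR-466c-5p crossed in aorta replicates 1, 2 and 4, at Ct 23.0, 23.4 and 18.3, and in macrophage replicate 2, at Ct 22.2. Neither difference passed (-3.39, adjusted p = 0.207, and -3.15, adjusted p = 0.596, limma). Wells that cross early in some replicates and not at all in others make these values unstable, and without macrophage replicate 2 miR-466h was called lower, at -6.22 (adjusted p = 0.00108). miR-466d-3p, the earliest relative in every sample, stood at places 13 to 28 of 517 in aorta and 15 to 23 in macrophages, with a difference of 0.02 ± 0.59 (SE).

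**Figure D5:**
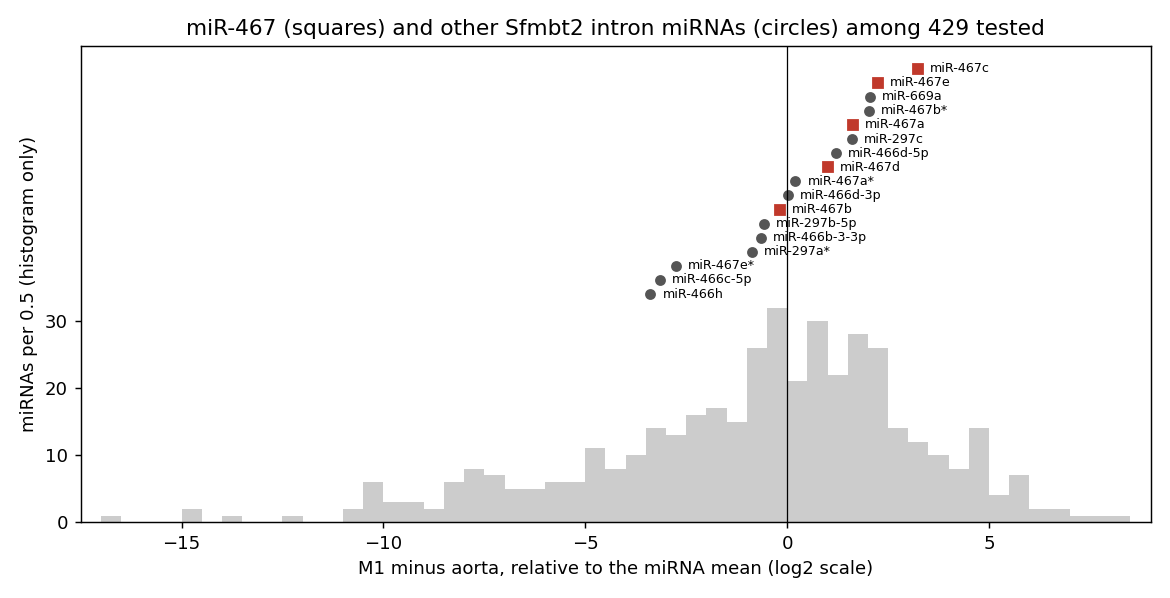
Histogram of the difference between macrophages and aorta, relative to the miRNA mean (log2 scale), over the 429 miRNAs tested, with the 5 miR-467 members (squares) and the 12 tested relatives (circles) placed above it at their own differences. The members lie between -0.17 and 3.24 and the relatives between -3.39 and 2.04.

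The mean scaled level of the 5 members was -3.05, -3.16, -2.12 and -2.07 in aorta and -0.80, -0.58 and -1.64 in macrophages. Among 289 miRNAs detected in all samples, with every miR-467 strand left out, the pattern closest to this mean, by the root mean square difference of levels centred on their own means over 7 samples, was that of miR-297c, at 0.26 cycles. miR-877*, miR-29a*, miR-106b* and miR-181a followed, at 0.28, 0.32, 0.40 and 0.44 cycles, and miR-669a was the next, at 0.44. miR-297c and miR-669a bear the names of families of the Sfmbt2 intron. The other 4 miR-297 and miR-466 assays detected in all samples came at places 98 to 210. The reference cancels from this measure, and all these patterns come from the same 7 samples.

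Taken singly, the members had different neighbours, which were looked up after the values were seen. The smallest SD of the Ct difference over 7 samples was 0.25 cycles for miR-467a, with miR-29a*, and its next neighbour was miR-669a, at 0.27. miR-467c was closest to let-7a, at 0.40, and miR-467d to miR-106b*, at 0.37. miR-467b was closest to miR-30d, at 0.50, and miR-467e to let-7e, at 0.52. No member had another member among its 3 closest miRNAs.

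Markers of cell types moved with the groups. All 5 macrophage and white blood cell miRNAs (miR-223, miR-142-3p, miR-142-5p, miR-155 and miR-146a) were higher in macrophages, with a summed level (as a log2 value) of 5.01 to 6.12 in aorta and 9.64 to 10.8 in macrophages. All 5 were detected in every aorta. All 3 smooth muscle miRNAs (miR-143, miR-145 and miR-133a) were lower in macrophages, with a summed level of 12.2 to 13.1 in aorta and -3.17 to -1.21 in macrophages, where miR-133a was detected in no sample. Both endothelial strands of miR-126 were lower, at 8.29 to 8.87 and -2.90 to -1.65. The red cell miRNAs miR-451 and miR-486, miR-193b of fat and miR-150 of lymphocytes were lower too, and miR-486 was detected in no macrophage sample. The part of any cell type of the aortic wall in the miR-467 values was not tested.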

How the data were processed

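The authors deposited cycle thresholds (Ct), a score per assay in which a lower value stands for more target. They also deposited values on a log2 scale, which were compared with the Ct. Each equalled the Ct less the average of that sample's MammU6 and snoRNA202 wells, to within 5e-05 cycles. How the plates were run and thresholds set is not given in the sources used here.

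Repeated wells, found for control assays and for no miRNA, were averaged. Wells later than Ct 35 were set to 35, and 296 miRNAs at Ct 35 or earlier in all 7 samples gave each sample's mean. A miRNA was tested if at least 3 samples of either group detected it, or all of a group when leaving a sample out made it smaller. Groups were compared with limma 3.58.1 in R 4.3.3 (lmFit and eBayes, 2-sided), with group as the only term and Benjamini-Hochberg adjustment over all 429 miRNAs tested. Differences between members were tested with exact permutation tests in scipy 1.17.1, and tables and plots were made with Python 3.11.15, pandas 2.3.3, numpy 2.4.6 and matplotlib 3.10.9. The procedure was also run on simulated data in which every assay had the same spread. The members' spreads were unequal, so that run does not gauge their precision. Having 7 samples limits the precision, and p-values measure the spread between samples labelled as biological replicates.

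The alternatives were other references, detection limits and filters, leaving out each sample and a replicate block. The correlation of same-numbered samples' deviations from their group means was 0.11, 0.01 and -0.07, so the numbers were not taken as pairs. The members, the lists and the naming rules were chosen with earlier results of these data known. The naming rule took every miR-467 main strand, the reference RNAs, the 4 other Sfmbt2 intron miRNAs with the largest differences, the 5 miRNAs closest to the members' mean and the cell markers; others were chosen after their values were seen. Gene names and their neighbours came from RefSeq (GRCm38.p6), with no build named for the assays, so no coordinates are given.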

Additional observations from a re-analysis of the deposited data

Results flagged for a closer look

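An assay outside the comparisons gave signal where none was looked for. The plant miRNA ath-miR159a, for which mice have no gene, crossed at Ct 27.9 in aorta replicate 1, 28.4 in aorta replicate 2, 21.1 in aorta replicate 3 and 31.4 in macrophage replicate 3. It did not cross in the other 3 samples. In aorta replicate 3, 404 of the 517 miRNA assays crossed later than it did. Among the 5 members and 6 reference RNAs, none of the 11 sets of 4 aorta levels held a sample apart at Dixon's 95% critical value.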

How the results depend on the processing

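All the listed settings were run, and taking the first of repeated wells changed nothing because no miRNA had repeated wells. The detection limits of Ct 38 and 40, the filters and the first-well setting kept 3 members called higher, and Ct 32 kept 2. Over all miRNAs, 106 of 430 were higher at Ct 38 and at Ct 40, and 100 of 410 at Ct 32. Testing only miRNAs detected in all samples gave 102 of 296 higher, and no filter gave 139 of 517. Members called higher numbered 1 with MammU6, snoRNA202, the deposited values or all 6 reference RNAs (added after seeing the data), and 0 with snoRNA135, the pair of snoRNA135 and snoRNA202, U87, Y1 or no scaling. Members called lower numbered 3 with snoRNA135, 1 with the pair and 1 with U87. Other Sfmbt2 intron miRNAs called higher fell to 0 under each of these 9 scalings, where 2.33% to 12.4% of all miRNAs were called higher. Of 12 tested, those called lower rose to 6 with the pair, 8 with snoRNA135, 3 with U87, 4 with Y1 and 4 without scaling. The shares of all miRNAs called lower were 53.8%, 66.0%, 46.6%, 46.9% and 48.3% in the same order. Quantile normalization, the deposited values, all 6 references, Ct 38, Ct 40 or the replicate block each gave 1 relative lower. Over all miRNAs these settings called 27.5%, 36.1%, 42.4%, 136 of 430, 137 of 430 and 123 of 412 lower. The difference of miR-467a turned to -0.61 with the pair, -1.52 with snoRNA135, -0.17 with U87, -1.03 with Y1 and -1.01 without scaling. That of miR-467d turned to -1.23, -2.14, -0.79, -1.65 and -1.63 in the same order, to -0.32 with snoRNA202 and to -0.58 with all 6 references. That of miR-467e turned to -0.90 with snoRNA135, -0.41 with Y1 and -0.39 without scaling, and that of miR-467b to 0.43 with quantile normalization. The cause was not tested. Leaving out 1 sample at a time gave 2 to 3 members and 1 to 3 relatives higher, and 0 to 1 relatives lower. Over all miRNAs, 90 to 112 were higher and 115 to 139 lower, of 404 to 433 tested. The members' differences ran from 1.43 to 1.86 for miR-467a, -0.53 to 0.58 for miR-467b and 2.92 to 3.53 for miR-467c. They ran from 0.66 to 1.80 for miR-467d and from 1.80 to 2.71 for miR-467e. Same-numbered samples did not deviate together (r = 0.11, 0.01 and -0.07). A replicate block over replicates 1 to 3 called 220 of 412 miRNAs, 97 higher and 123 lower. It called 2 members higher, miR-467c and miR-467e, with miR-467a at an adjusted p of 0.0594 (limma).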
